A study of Homo sapiens with 12 samples.

Results

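The genes of TGF-beta, activin and BMP signalling were followed through oncogene-induced senescence (OIS) and XPO7 knockdown. They are 47 genes of the 62069 in the count table, chosen by name as ligands, receptors, extracellular antagonists and follistatin-like genes, latent binding proteins, SMADs, ubiquitin ligases and 1 secreted target. The choice was made with earlier results of these data known. All 47 were found, and 44 had enough counts to be tested. INHA, INHBB and CHRD, with 40, 9 and 45 counts in all libraries together, were not tested.

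RNA-seq was carried out on IMR90 ER:RAS cells, a line of human lung fibroblasts in which RAS is fused to the ligand-binding domain of the estrogen receptor and is switched on by 4-hydroxytamoxifen (4OHT). There were 4 groups of 3 libraries, each at passage 13 and day 5: non-induced cells, cells induced with 100 nM 4OHT, and cells induced in the same way that also expressed the shRNA shXPO7_3 or shXPO7_5 against XPO7, a nuclear transport receptor. The study gives a nontargeting vector in the cells without an XPO7 shRNA, and every cell carried the ER:RAS fusion. The libraries of a group have the letters T, A and B, or T, A and C in the non-induced group, and whether these are separate cultures is not in the labels. The spread behind every p-value is the spread within these groups and may be technical.

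TGF-beta, activins, BMPs and GDFs are secreted dimers of one protein family. Most of them, though not all GDFs, bring together type II and type I receptor kinases at the cell surface. The type I receptor then phosphorylates SMAD proteins, which enter the nucleus with SMAD4: SMAD2 and SMAD3 after TGF-beta or activin, SMAD1, SMAD5 and SMAD9 after BMPs. Antagonists such as noggin, gremlin and follistatin trap ligands outside the cell, latent TGF-beta is stored in the matrix by LTBPs, and SMAD6 and SMAD7 hold the signal back inside. In fibroblasts TGF-beta is best known for matrix production and myofibroblast genes, and both TGF-beta and activin A are among the factors that senescent fibroblasts secrete.

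The libraries held 28534141 to 60397769 counts. XPO7 was at 127 to 144 CPM, the counts scaled to library size, in the induced libraries, 26.4 to 28.7 with shXPO7_3 and 50.8 to 54.0 with shXPO7_5, below the induced libraries in all 6 knockdown libraries. The proliferation gene MKI67 was at 250 to 280 CPM in non-induced and 25.5 to 30.3 in induced libraries. The 10 fibroblast markers were all present and summed to 17159 to 28192 CPM, while epithelial markers summed to at most 6.86 (KRT5 at 0), endothelial markers to at most 15.1 (PECAM1 and CDH5 at 0) and immune markers to at most 1.36 CPM (CD3E at 0). The log2 level of genes relative to the mean of the induced libraries followed their GC content in some libraries. Over the tested genes, which are not independent replicates, Spearman's rho with GC content was 0.57 in shXPO7_3 T, 0.60 in shXPO7_5 T and 0.77 in shXPO7_5 B, and between -0.33 and 0.31 in the other 9, and 0.68 for the change of shXPO7_5 against induced.

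Most of these genes changed in OIS, and the numbers that rose and fell differed by role. Of the 44 tested members, 31 (70.5%) passed the test between induced and non-induced cells (edgeR quasi-likelihood test, Benjamini-Hochberg adjusted p under 0.05 over 15284 genes), against 50.9% of all genes tested. There were 16 that rose, against 24.8% of all genes, and 15 that fell, against 26.1%. Among ligands 8 of 12 rose and 1 fell, while all 5 tested antagonists and follistatin-like genes fell. Of the 8 SMADs 5 fell and 2 rose. A change of at least 1 on the log2 scale was seen in 12 members (27.3%), against 16.8% of all genes. The median log2 fold change was 0.18 over the members and -0.0068 over all genes, and the median size of change was 0.58 and 0.38. Fewer cells of a kind and less RNA per cell cannot be told apart in these bulk libraries.

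**Figure D1:**
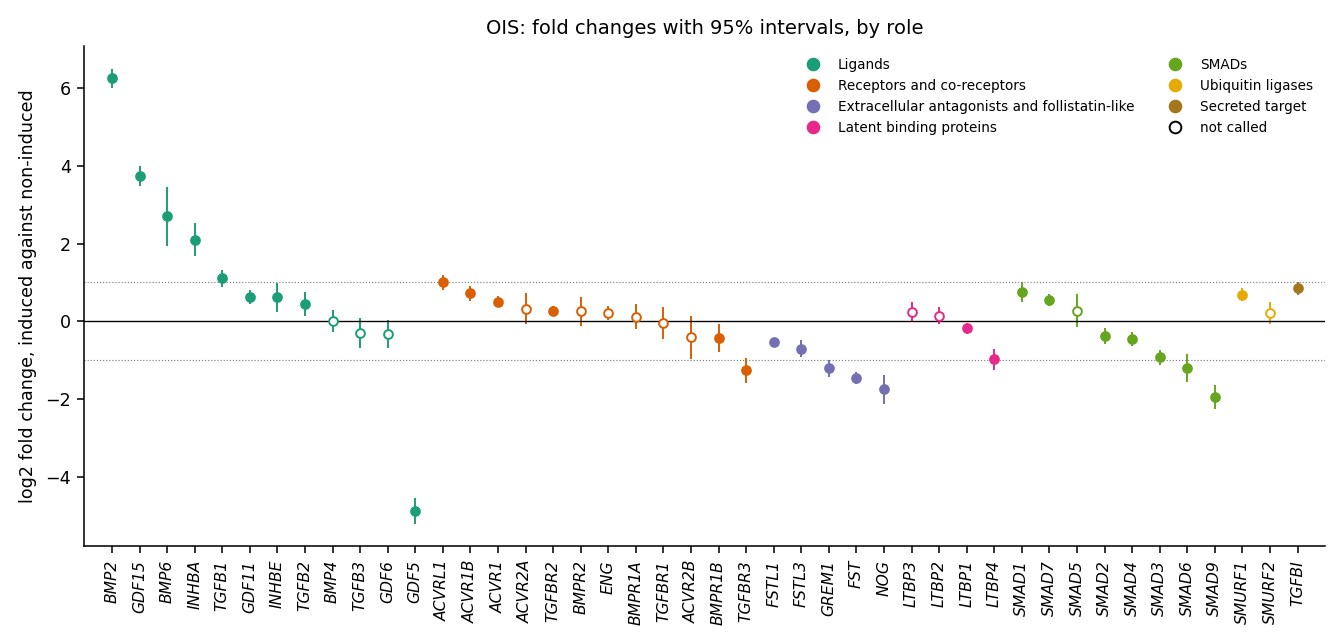
Log2 fold change of the 44 tested members between induced and non-induced cells, grouped by role and sorted within each role. Points are estimates, bars 95% intervals, filled points passed the test and open points did not, and dotted lines mark a change of 1. Ligands reach from 6.25 for BMP2 to -4.89 for GDF5, and the 5 antagonists and follistatin-like genes all lie below 0.

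Regulatory sequences of members were read from the RefSeq promoter windows of build GRCh38.p14, taking the 250 bases upstream of the start of transcription. A window was found for 42 of the 47 members, and ACVRL1, BMP2, GDF6, INHBE and NOG had none. Motifs were searched on both strands: the AP-1 site TGAGTCA or TGACTCA, the SMAD box CAGACA, the palindromic SMAD element GTCTAGAC and the GC-rich SMAD element GGCGCC, none of which contains another. GTCTAGAC was in 1 member, SMAD6, which fell in OIS, and in 0.176% of 27305 promoters. GGCGCC was in 14 members (33.3%), of which 3 rose, 6 fell, 3 did not pass and the others were not tested, and in 16.1% of all promoters. CAGACA was in 6 members (14.3%) and 13.6% of all promoters, and the AP-1 site was in SMAD1 and INHA only among members (4.76%), and in 4.16% of all promoters. Shown here with matches in capitals are SMAD6 for the palindrome, GREM1, SMAD3 and ACVR1 for the SMAD box or the GC-rich element in genes that fell or rose, and INHBA and TGFB1, the risen ligands of the activin and TGF-beta branches, whose windows hold none of these letters. The windows are chr15:66701986-66702235 for SMAD6 (plus strand), chr15:32717754-32718003 for GREM1 (plus strand), chr15:67065352-67065601 for SMAD3 (plus strand), chr2:157876331-157876580 for ACVR1 (minus strand), chr7:41703091-41703340 for INHBA (minus strand) and chr19:41353923-41354172 for TGFB1 (minus strand). The last 8 bases of the SMAD6 window, 30 of GREM1 and 18 of INHBA lie within an exon of the gene in GENCODE 29, and the rest lies outside the gene's exons. A match is a description of the letters and not of a bound site.
SMAD6: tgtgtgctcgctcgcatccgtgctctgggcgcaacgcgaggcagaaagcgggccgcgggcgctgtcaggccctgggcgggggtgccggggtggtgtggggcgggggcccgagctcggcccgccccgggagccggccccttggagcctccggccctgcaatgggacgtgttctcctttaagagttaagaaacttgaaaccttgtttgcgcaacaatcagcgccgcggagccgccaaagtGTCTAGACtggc
GREM1: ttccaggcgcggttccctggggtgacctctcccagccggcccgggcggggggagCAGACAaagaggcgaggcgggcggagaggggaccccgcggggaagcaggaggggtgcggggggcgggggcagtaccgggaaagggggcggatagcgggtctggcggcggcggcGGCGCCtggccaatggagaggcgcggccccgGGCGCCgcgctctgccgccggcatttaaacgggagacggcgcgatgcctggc
SMAD3: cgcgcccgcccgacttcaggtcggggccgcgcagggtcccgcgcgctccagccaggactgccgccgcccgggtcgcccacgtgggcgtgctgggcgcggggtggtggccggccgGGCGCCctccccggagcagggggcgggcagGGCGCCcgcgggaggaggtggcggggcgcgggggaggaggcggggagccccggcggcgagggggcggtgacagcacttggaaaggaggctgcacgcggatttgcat
ACVR1: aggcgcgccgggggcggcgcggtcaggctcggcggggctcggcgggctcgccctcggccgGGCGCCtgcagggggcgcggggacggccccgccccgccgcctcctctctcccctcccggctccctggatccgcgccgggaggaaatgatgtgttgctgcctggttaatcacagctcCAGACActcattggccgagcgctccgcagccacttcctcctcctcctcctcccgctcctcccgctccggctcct
INHBA: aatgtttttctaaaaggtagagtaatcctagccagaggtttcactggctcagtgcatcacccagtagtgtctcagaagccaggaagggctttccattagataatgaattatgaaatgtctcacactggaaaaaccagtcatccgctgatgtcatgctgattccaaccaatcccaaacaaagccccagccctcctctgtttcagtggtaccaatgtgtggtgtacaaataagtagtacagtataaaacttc
TGFB1: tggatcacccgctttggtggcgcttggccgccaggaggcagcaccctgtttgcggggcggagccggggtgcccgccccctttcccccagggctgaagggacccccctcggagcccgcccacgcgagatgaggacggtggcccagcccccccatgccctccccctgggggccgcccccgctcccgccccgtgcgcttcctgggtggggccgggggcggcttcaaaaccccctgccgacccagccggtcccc

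TGFB1 and INHBA were the dominant transcripts of their branches and both rose. TGFB1, the main TGF-beta isoform of fibroblasts, was at 121, 119 and 108 CPM in the non-induced libraries and at 249.97, 254.7 and 243 CPM in the induced ones. The induced libraries all lay above the non-induced ones, with little spread within either group. The log2 fold change of TGFB1 was 1.10 (SE 0.10, adjusted p = 1.63e-06). INHBA, which encodes the subunit of activin A, was at 148, 191 and 236 CPM in non-induced and 838, 895 and 735 CPM in induced libraries. The groups were well apart, although the non-induced libraries of INHBA differed more among themselves than those of TGFB1. INHBA rose by 2.10 on the log2 scale (SE 0.19, adjusted p = 1.78e-06).

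TGFB2 and TGFB3 were minor isoforms. TGFB2 went from 7.13 ± 0.65 to 9.71 ± 1.35 CPM (mean ± SD of 3 libraries, as for all such values). Its log2 fold change was 0.44 (adjusted p = 0.0213 in the edgeR test), a call that was lost without non-induced T or A or induced T or A (adjusted p up to 0.0815). TGFB3, at 3.25 ± 0.48 and 2.63 ± 0.53 CPM, had a log2 fold change of -0.31 and did not pass (edgeR adjusted p = 0.162). Per kilobase of exon, TGFB1 made up 94.6% ± 0.369 of the 3 isoforms in non-induced and 97.0% ± 0.216 in induced libraries. The groups did not overlap, and the exact two-sided permutation p of 0.1 is the smallest that 3 against 3 libraries allow (adjusted over 16 tests 0.2). The share of TGFB3 was 1.74% ± 0.163 and then 0.673% ± 0.136, with the same exact p of 0.1. INHBE, the activin E subunit, was far below INHBA in induced cells, at 0.412 against 99.1 CPM per kilobase. INHBE rose from 0.805 ± 0.134 to 1.24 ± 0.0852 CPM (log2 fold change 0.62, edgeR adjusted p = 0.00916). INHBA was 98.6% of the summed CPM per kilobase of the 4 inhibin and activin genes in non-induced and 99.5% in induced cells, since INHA, the inhibin alpha subunit, and INHBB stayed at 0 to 6 and 0 to 2 counts per library.

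BMP and GDF ligands held the largest changes of the pathway, in both directions. BMP2, a bone morphogenetic protein that signals through SMAD1, SMAD5 and SMAD9, was at 2.26, 1.87 and 1.50 CPM in non-induced libraries and at 147.8, 141 and 139 CPM in induced ones. This was the widest gap between the groups among the members. BMP2 rose 75.9-fold in mean CPM, or 6.25 on the log2 scale (SE 0.11, adjusted p = 4.42e-12). GDF15, a distant family member secreted under cell stress, was at 23.1, 22.6 and 21.2 CPM and then at 304, 303 and 292 CPM. The spread within each group was small beside the difference. Its log2 fold change was 3.75 (SE 0.12, adjusted p = 1.55e-10). BMP6 was a rare transcript, at 0.0927, 0.0972 and 0.142 CPM in non-induced and 0.683, 0.886 and 0.666 CPM in induced libraries. All induced libraries were higher, but the non-induced values rest on 12 counts together. BMP6 rose by 2.70 (SE 0.35, adjusted p = 3.81e-05).

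GDF5, a ligand known for its role in joint formation, went the other way. It was at 25.6, 24.3 and 20.3 CPM in non-induced libraries and at 0.656, 0.744 and 0.928 CPM in induced ones. The groups did not overlap, and the level in induced cells rests on 91 counts. GDF5 fell by 4.89 on the log2 scale (SE 0.15, adjusted p = 1.19e-10). Among the 44 tested members it thus had the largest fall, as BMP2 had the largest rise. On the opposite strand, exons of GDF5-AS1 cover 35.2% of the GDF5 exons, and the strand setting of the counting is not given in the sources used here, but GDF5-AS1 had only 27 counts. GDF11, a close relative of myostatin, rose from 52.0 ± 5.11 to 80.2 ± 0.957 CPM (log2 fold change 0.63). BMP4 was at nearly the same level in both groups, 6.08 ± 1.10 and 6.12 ± 0.33 CPM, with a 95% interval of the log2 fold change from -0.27 to 0.29. GDF6 was low in both groups, at 1.69 ± 0.244 and 1.36 ± 0.143 CPM, and did not pass (adjusted p = 0.124). On a scale of CPM per kilobase the order of the ligands in non-induced cells was TGFB1 (35.8), INHBA (23.1), GDF15 (10.7), GDF5 (8.84) and GDF11 (6.01). In induced cells it was GDF15 (143.5), INHBA (99.1), TGFB1 (77.0), BMP2 (39.6) and GDF11 (9.27).

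**Figure D2:**
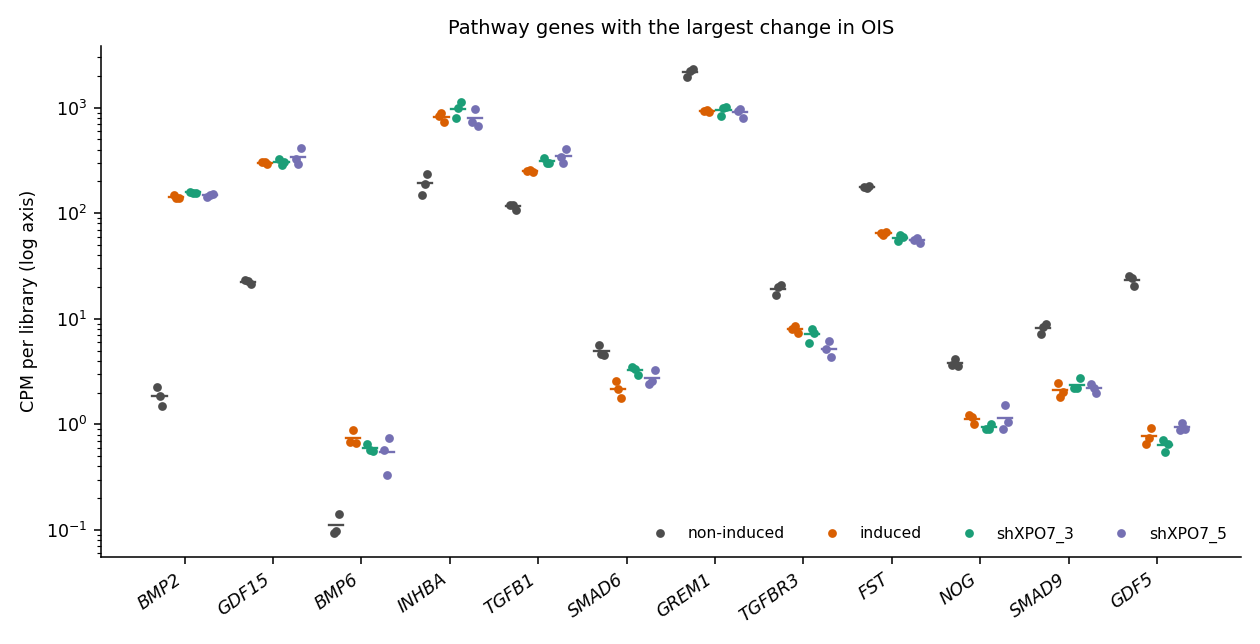
CPM in each of the 12 libraries, on a log axis, for the 12 members that passed the test between induced and non-induced cells with a log2 fold change of at least 1. Points are libraries, coloured by group, and short lines are group means. All 9 libraries with 4OHT lie on the same side of the non-induced libraries for each gene, which is likely for genes chosen in this way.

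All 5 tested antagonists and follistatin-like genes fell. GREM1 encodes gremlin, a secreted BMP antagonist, and was among the most abundant members at 1949, 2221 and 2316 CPM in non-induced libraries. In the induced libraries it was at 928, 954 and 910.0 CPM, well below. Its log2 fold change was -1.22 (SE 0.10, adjusted p = 5.01e-07). FST encodes follistatin, which binds activin, and was at 178, 172 and 182 CPM and then at 64.5, 62.3 and 66.9 CPM. Both groups were tight and far apart. FST fell by 1.46 on the log2 scale (SE 0.07, adjusted p = 5.29e-09). NOG encodes noggin, another BMP antagonist, and was at 3.65, 4.15 and 3.57 CPM and then at 1.23, 1.17 and 1.01 CPM. The induced libraries were again all lower. NOG fell by 1.75 (SE 0.17, adjusted p = 3.49e-06).

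The follistatin-like genes followed with smaller changes. FSTL3, an activin-binding relative of follistatin, went from 61.9 ± 4.86 to 38.0 ± 1.23 CPM (log2 fold change -0.70), and FSTL1, a secreted glycoprotein, from 1185 ± 18.9 to 813 ± 5.99 CPM (log2 fold change -0.54). CHRD, which encodes the BMP antagonist chordin, had at most 7 counts in any library. Set side by side per kilobase, INHBA stood at 23.1 and FST at 59.9 CPM per kilobase in non-induced cells, and at 99.1 and 21.7 in induced cells. On this scale the order of the activin subunit and its antagonist was thus reversed. In CPM the non-induced libraries overlapped, at 148 to 236 for INHBA and 172 to 182 for FST. Their order in non-induced cells thus rests on the exon lengths used. GREM1 stood at 148.0 and 63.7 CPM per kilobase in these groups, above BMP2 in both.

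**Figure D3:**
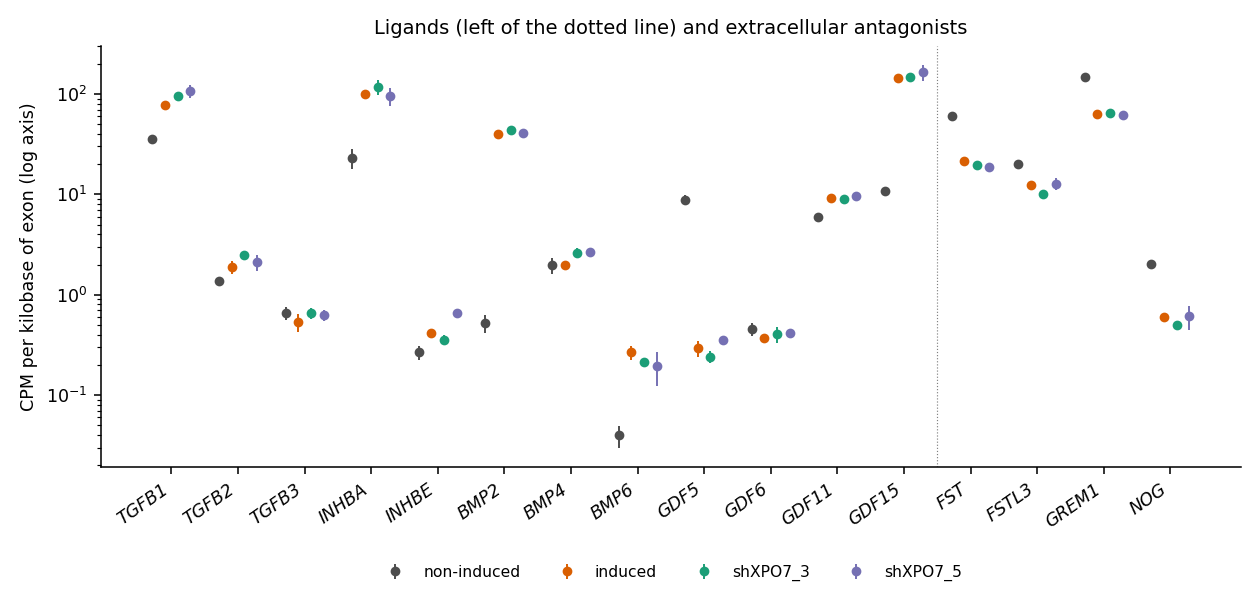
CPM per kilobase of exon, on a log axis, of 12 ligands and 4 antagonists in the 4 groups. Points are means and bars SD of 3 libraries. FST lies above INHBA in non-induced cells and below it in the 3 groups with 4OHT, and BMP2 goes from 0.521 to 39.6 CPM per kilobase.

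Of the 12 receptors and co-receptors 4 rose, 2 fell and 6 did not pass, a share of called genes close to the 50.9% of all genes. TGFBR3 encodes betaglycan, a co-receptor that presents TGF-beta and also binds inhibin, and was at 16.7, 19.8 and 20.8 CPM in non-induced and 8.03, 8.58 and 7.32 CPM in induced libraries. The induced libraries were all lower. It fell by 1.27 on the log2 scale (SE 0.14, adjusted p = 1.37e-05). Type I receptors rose where they changed, with the exception of BMPR1B. ACVRL1, a type I receptor for BMP9 and TGF-beta best known in endothelium, went from 19.2 ± 1.60 to 38.4 ± 0.429 CPM, a log2 fold change of 0.9995 that missed a change of 1 narrowly. ACVR1B, the main activin type I receptor, rose from 28.6 ± 2.24 to 47.2 ± 1.32 CPM (log2 fold change 0.72) and ACVR1, a BMP type I receptor, from 74.6 ± 4.87 to 105.7 ± 0.807 CPM (log2 fold change 0.50). BMPR1B fell from 3.63 ± 0.553 to 2.70 ± 0.241 CPM (log2 fold change -0.43, adjusted p = 0.0395) and kept the call in 12 of 21 alternative analyses. TGFBR2, the type II receptor of TGF-beta, rose from 330.4 ± 1.54 to 398 ± 3.09 CPM, a log2 fold change of 0.27. TGFBR1, its type I partner, was at 48.6 ± 9.03 and 46.8 ± 3.75 CPM and did not pass (adjusted p = 0.825). BMPR1A, BMPR2, ACVR2A, ACVR2B and the co-receptor ENG did not pass either, with log2 fold changes of 0.12, 0.26, 0.32, -0.41 and 0.21. The ENG libraries did not overlap between groups, and its adjusted p was 0.0624. With an offset in the fit for GC content and length, ENG passed at a log2 fold change of 0.39, BMPR2 at 0.18 (edgeR adjusted p = 0.00905) and ACVR2A at 0.25 (edgeR adjusted p = 0.0175). The offset also called SMAD5, SMURF2, LTBP2 and LTBP3, with log2 fold changes of 0.18, 0.15, 0.30 and 0.39. It called 63.9% of all genes in place of 50.9%.

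Inside the cell, the SMADs of the TGF-beta and activin branch and their common partner fell. SMAD3 went from 290 ± 28.1 to 152 ± 4.76 CPM (log2 fold change -0.93), SMAD2 from 81.5 ± 7.43 to 62.6 ± 1.38 CPM (log2 fold change -0.38) and SMAD4, which serves both branches, from 43.9 ± 2.26 to 32.0 ± 1.56 CPM (log2 fold change -0.45). The BMP SMADs were split. SMAD9, a BMP-activated SMAD, was at 7.14, 8.38 and 8.93 CPM in non-induced and 2.46, 1.81 and 2.02 CPM in induced libraries. The induced libraries were all lower. SMAD9 fell by 1.95 (SE 0.14, adjusted p = 2.78e-07), while SMAD1 rose from 10.9 ± 1.74 to 18.4 ± 0.893 CPM (log2 fold change 0.75) and SMAD5, at 77.5 ± 16.9 and 93.4 ± 3.72 CPM, did not pass.

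The inhibitory SMADs went in opposite directions. SMAD6, which mainly restrains BMP signals and whose window carries the palindrome printed above, was at 5.62, 4.66 and 4.59 CPM in non-induced and 2.60, 2.16 and 1.78 CPM in induced libraries. The groups did not overlap. SMAD6 fell by 1.19 (SE 0.17, adjusted p = 7.15e-05). SMAD7, which restrains both branches, rose from 13.8 ± 0.364 to 20.1 ± 1.12 CPM (log2 fold change 0.54). SMURF1, a ubiquitin ligase that marks SMADs and receptors for degradation, rose from 67.0 ± 3.75 to 107 ± 0.785 CPM (log2 fold change 0.68). Its exons overlap those of TRRAP on the opposite strand over 11.7% of their length, and TRRAP had 127% of the counts of SMURF1. SMURF2 was at 404 ± 44.5 and 469.7 ± 5.16 CPM and did not pass (adjusted p = 0.182).

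Among the latent binding proteins LTBP4 fell from 60.5 ± 4.09 to 30.7 ± 1.29 CPM (log2 fold change -0.98), and LTBP1, which binds latent TGF-beta and had the highest level per kilobase of the LTBPs in both groups, from 723 ± 25.9 to 635 ± 12.2 CPM (log2 fold change -0.19, adjusted p = 0.0197). The LTBP1 call held in 16 of 21 alternatives. It was lost without non-induced T or induced A, without a filter on low counts, and under the offset with or without the library letter as a block, where the log2 fold change was -0.07 and -0.09. LTBP2, which does not bind latent TGF-beta, and LTBP3 had log2 fold changes of 0.14 and 0.23 and did not pass. TGFBI, a secreted matrix protein named for its induction by TGF-beta, had the highest level per kilobase of all members in every group, and rose from 236 to 423 CPM per kilobase (log2 fold change 0.84, adjusted p = 3.56e-06).

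Genes known to respond to TGF-beta did not move together. All 30 of a list of such genes were tested, of which 3 are members, and 14 rose, 13 fell and 3 did not pass. Of all genes tested, 24.8% rose and 26.1% fell. The median log2 fold change of the list was 0.13. The largest rises were those of CDKN2B, a cyclin-dependent kinase inhibitor (4.48), the transcription factor BHLHE40 (2.60), the cytokine IL11 (2.57) and the NADPH oxidase NOX4 (2.15). The largest falls were those of ELN, which encodes elastin (-4.73), the smooth muscle genes CNN1 (-1.55) and TAGLN (-1.24), and COL1A2, a collagen I chain (-1.16). Of 15 tested BMP response genes, 5 of the list of 16 being members, 5 rose and 7 fell, beside the same shares of all genes. Their median was -0.19. The Notch and BMP target HEY1 (3.92) and the homeobox genes MSX1 (0.73) and MSX2 (0.63) rose beside SMAD7, while ATOH8 (-2.60), ID4 (-2.09) and ID2 (-1.78), inhibitors or partners of helix-loop-helix factors, fell beside SMAD9. The ID genes were split, since ID1 rose and ID3 did not pass.

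Of the other genes of the pathway, 15 extracellular modulators were tested, of which 2 rose, 8 fell and 5 did not pass, with a median of -0.57, beside 24.8% of all genes that rose and 26.1% that fell. Among those that fell were DCN, which encodes the TGF-beta-binding matrix proteoglycan decorin (-3.37), the BMP antagonist CHRDL1 (-3.33) and CRIM1 (-1.34), a membrane protein that binds BMPs. NRROS (1.64), which anchors latent TGF-beta, and FURIN (0.54), a protease that processes the ligands, rose. Of 11 tested intracellular regulators 5 rose, led by the TGF-beta feedback genes PMEPA1 (1.96) and SKIL (1.51), and 2 fell, TGIF2 (-0.80) and SKI (-0.29). Only 4 of 15 other ligands were tested, of which BMP7 rose (2.32) and BMP3 fell (-1.03). Of 8 other receptors 4 were tested, and RGMA (-1.59), RGMB (-0.38) and NEO1 (-0.30), BMP co-receptors or their binding partner, fell.

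With XPO7 knockdown, all 6 libraries stayed outside the non-induced range, on the induced side, for each of the 12 members chosen for a large OIS change. This would not show a partial return, and genes chosen for a large change are likely to stay on that side. Neither the other members called in OIS nor all genes with a change as large were compared in this way. BMP2, for example, was at 160, 157 and 157 CPM with shXPO7_3 and at 144, 148 and 153 CPM with shXPO7_5. GDF5 stayed between 0.543 and 1.03 CPM and FST between 52.0 and 61.9 CPM over these libraries. INHBA was at 798, 999.7 and 1139 CPM with shXPO7_3 and at 737, 972 and 665 CPM with shXPO7_5, which overlaps the induced libraries in both cases. Under the offset for GC content and length INHBA passed against induced cells with both shRNAs. The log2 fold change was then 0.27 with shXPO7_3 (edgeR adjusted p = 0.0342) and 0.25 with shXPO7_5 (edgeR adjusted p = 0.0434).

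**Figure D4:**
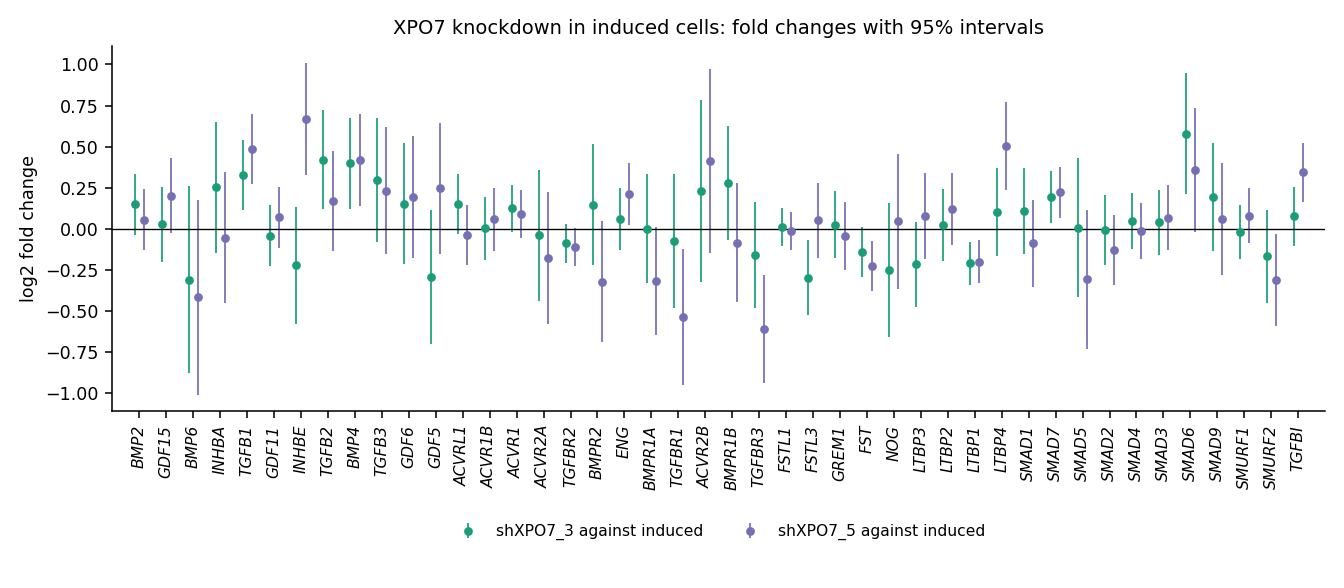
Log2 fold change of the 44 tested members with shXPO7_3 (green) and shXPO7_5 (purple) against induced cells, with 95% intervals, in the order of the plot of OIS changes by role. Both comparisons share the 3 induced libraries. No member passed the test in either, and the estimates lie between -0.61 and 0.67.

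Against induced cells no member passed the edgeR test with either shRNA. With shXPO7_3, 0 of 44 members were called, against 0.124% of all genes, and DESeq2 called 0, against 0.576%. An unadjusted p under 0.05 was reached by 7 members (15.9%) and by 6.41% of all genes. With shXPO7_5, 0 members were called, against 0.589% of all genes. DESeq2 called 4, TGFB1, TGFBI, LTBP4 and TGFBR3, against 2.79% of all genes. LTBP4 had a log2 fold change of 0.50 in the edgeR fit and passed in 5 of 21 alternatives. With this shRNA 12 members (27.3%) and 21.6% of all genes had an unadjusted p under 0.05. Between the shRNAs 0 members were called, against 0.0131% of all genes, and DESeq2 called 0, against 0.177%. There 11 members (25.0%) and 11.9% of all genes had an unadjusted p under 0.05. The libraries of knockdown and induced cells did not overlap in 15 members (34.1%) with shXPO7_3, against 14.6% of all genes, and in 15 members (34.1%) with shXPO7_5, against 26.8%. The median log2 fold change of the members was 0.03 with shXPO7_3 and 0.06 with shXPO7_5.

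TGFB1 had the smallest p among members with shXPO7_5. It was at 336, 300.2 and 300.4 CPM with shXPO7_3 and at 343, 298 and 404 CPM with shXPO7_5. All 6 libraries were above the 3 induced ones, of which the highest was at 254.7 CPM. With shXPO7_5 the log2 fold change was 0.48 (SE 0.10, adjusted p = 0.05003), which lay just outside the threshold and passed in 9 of 21 alternatives, with adjusted p from 0.00188 to 0.204. With an offset for GC content and length it was 0.25 and passed (edgeR adjusted p = 0.00629). TGFB1 has a GC content of 63.5%, and its exons overlap those of HNRNPUL1 on the opposite strand over 6.64% of their length. With shXPO7_3 the log2 fold change was 0.32 (SE 0.10, adjusted p = 0.370), and 0.30 with the offset (adjusted p = 0.00234). The change of TGFB1 between the shRNAs was not called.

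INHBE and TGFBI followed in shXPO7_5. INHBE was at 2.05, 2.05 and 1.83 CPM with shXPO7_5, at 1.15, 1.31 and 1.27 CPM in induced and at 1.07, 1.21 and 0.944 CPM in shXPO7_3 libraries. Only the shXPO7_5 libraries stood apart. The log2 fold change was 0.67 against induced (SE 0.16, adjusted p = 0.0797) and 0.89 against shXPO7_3 (SE 0.16, unadjusted p = 1.11e-04, adjusted p = 0.262), so neither passed. TGFBI was at 4493, 3792 and 4297 CPM with shXPO7_5, above the 3 induced libraries at 3359, 3255 and 3303 CPM. The shXPO7_3 libraries, at 3861, 3268 and 3315 CPM, overlapped the induced ones. Its log2 fold change was 0.34 with shXPO7_5 (SE 0.08, adjusted p = 0.0822) and 0.27 against shXPO7_3 (SE 0.08, adjusted p = 0.388). With shXPO7_5 TGFBI passed in 7 of 21 alternatives, among them DESeq2 (adjusted p = 0.0187) and the offset (log2 fold change 0.29, adjusted p = 0.00766). FSTL3, at 33.8, 29.4 and 29.5 CPM with shXPO7_3 and 38.6, 34.2 and 45.3 CPM with shXPO7_5, had a log2 fold change between the shRNAs of 0.35 (SE 0.11, adjusted p = 0.388).

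With shXPO7_3 the smallest p-values were those of LTBP1, SMAD6 and TGFB1. LTBP1 was at 561, 541 and 544 CPM with shXPO7_3, and at 595, 530.2 and 532 CPM with shXPO7_5. Both sets were below the induced libraries at 649, 628 and 627 CPM. The log2 fold changes were -0.21 (SE 0.06, adjusted p = 0.312) and -0.20 (SE 0.06, adjusted p = 0.138). Under the offset for GC content and length LTBP1 passed with both shRNAs. The log2 fold change was then -0.23 with shXPO7_3 (edgeR adjusted p = 0.0122) and -0.26 with shXPO7_5 (edgeR adjusted p = 0.00566). SMAD6 was at 3.51, 3.32 and 2.92 CPM with shXPO7_3, above the induced libraries and below the non-induced ones. Its log2 fold change was 0.58 (SE 0.17, adjusted p = 0.339), and 0.36 with shXPO7_5, whose libraries at 2.43, 2.57 and 3.30 CPM overlapped the induced ones.

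Of the 12 receptors, 4 had a positive log2 fold change with shXPO7_5 and 8 with shXPO7_3, beside 50.7% and 48.9% of all genes tested, and the difference was not tested. The lowest were TGFBR3, with log2 fold changes of -0.61 with shXPO7_5 and -0.16 with shXPO7_3, and TGFBR1, with -0.54 and -0.08, neither of which passed. Both passed with shXPO7_5 under the offset for GC content and length, at -0.47 for TGFBR3 (edgeR adjusted p = 0.0267) and -0.24 for TGFBR1 (edgeR adjusted p = 0.0387). TGFBR3 passed in 6 of 21 alternatives, among them DESeq2 (adjusted p = 0.0198), and TGFBR1 in 3. TGFBR1 was at 29.6, 41.8 and 25.3 CPM in the shXPO7_5 libraries T, A and B, beside 36.1, 48.0 and 49.1 CPM with shXPO7_3 and 43.4 to 50.8 CPM in induced cells. The lowest libraries of each shRNA were thus shXPO7_5 T and B and shXPO7_3 T. BMPR1A, BMPR2, SMAD5 and SMURF2, all with a GC content between 36.9% and 40.6%, were lower than in the rest of their group in the same 3 libraries as TGFBR1, those with the highest rho of level and GC content. SMAD5, for one, was at 73.4, 103 and 105 CPM with shXPO7_3 and at 68.0, 97.0 and 61.2 CPM with shXPO7_5. Over the 44 members the rho of the shXPO7_5 change with GC content was 0.62, and -0.21 after the offset. With shXPO7_3 it was -0.11 and -0.18. The members share these libraries, and the part of GC content in the single changes was not tested beyond the offset.

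**Figure D5:**
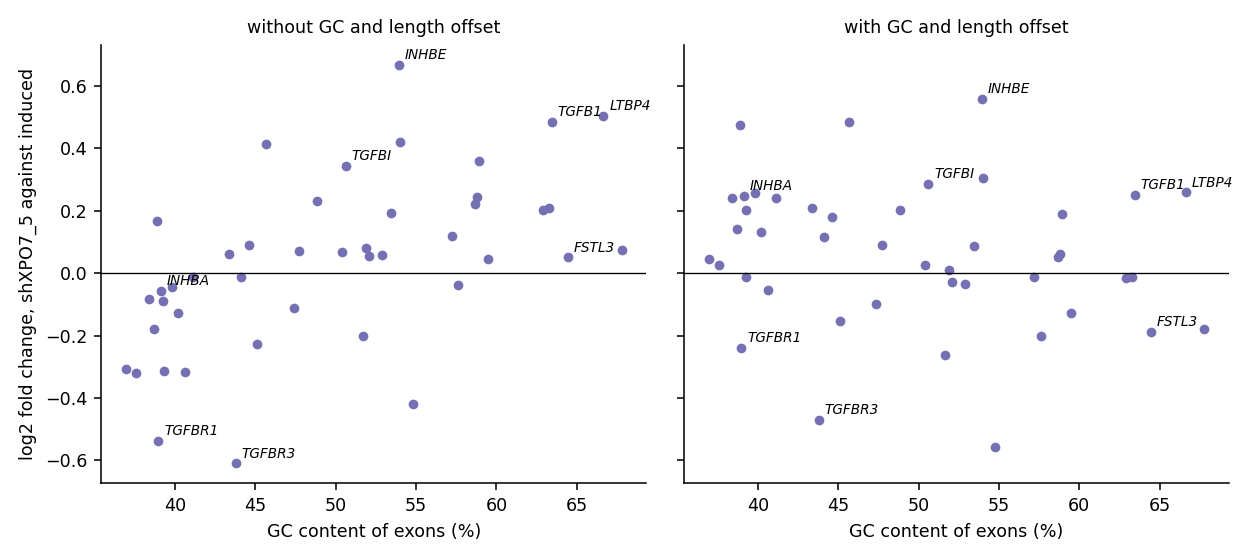
Log2 fold change with shXPO7_5 against induced cells and GC content of the exons for the 44 tested members, in the fit without (left) and with (right) an offset for GC content and length. Each point is a gene. TGFB1 goes from 0.48 to 0.25 and TGFBR1 from -0.54 to -0.24, while INHBE stays at 0.67 and 0.56.

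Response genes did not pass in the knockdowns. Of the 30 TGF-beta response genes, 20 had a positive log2 fold change with shXPO7_3 and 25 with shXPO7_5, with medians of 0.06 and 0.16, and of the 15 BMP response genes 12 and 14, with medians of 0.15 and 0.19. Of all genes tested, 48.9% and 50.7% were positive, with medians of -0.0031 and 0.0058. These signs come from the fit without the offset for GC content and length. Over all tested genes the rho of the change with GC content was 0.11 with shXPO7_3 and 0.68 with shXPO7_5. The part of GC content in the signs of the response genes was not tested. None of these response genes was called with either shRNA. The other pathway genes tested were 15 extracellular modulators, 11 intracellular regulators, 4 ligands and 4 receptors. Of these 1 was called with shXPO7_5, against 0.589% of all genes, and 0 with shXPO7_3, against 0.124%. The called gene, LRRC32, encodes a surface protein that holds latent TGF-beta, and it is named because of its values. LRRC32 was at 37.4, 32.7 and 28.8 CPM in non-induced, 22.1, 23.3 and 21.4 CPM in induced, 38.5, 31.2 and 31.1 CPM in shXPO7_3 and 39.6, 35.2 and 41.5 CPM in shXPO7_5 libraries. All knockdown libraries were above the induced ones and within or above the non-induced range. It fell in OIS by 0.57 and was higher by 0.80 with shXPO7_5 (SE 0.11, adjusted p = 0.0132). The latter call was lost without any 1 of the induced libraries or without shXPO7_5 T or B (adjusted p up to 0.0834). It held in 16 of 21 alternatives. With shXPO7_3 the change was 0.59 (SE 0.11, adjusted p = 0.0834). That change passed in 4 of 21 alternatives, among them DESeq2 and the offset, with adjusted p from 1.54e-04 to 0.364.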

How the data were processed

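Raw read counts per Ensembl gene were deposited by the authors, 1 column for each of the 12 libraries, without normalization. According to the submitters' processing notes, CASAVA 1.8.4, TopHat2 2.0.11 and, for the counting, featureCounts 1.18.0 were used, with hg19 and GRCh37 as builds. The sources used here do not give the authors' test for these counts, nor the annotation, how multi-mapped reads were treated or whether counting used strand. All 92 spike-in rows held 0 counts and were not used. Totals were 28534141 to 60397769 counts. Libraries of 1 group differed by more than sampling noise (chi-square per gene 4.27 to 56.2), so none was taken for a copy of another. Their spread may still be technical.

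Genes were tested in 1 edgeR 4.0.16 quasi-likelihood fit over all 12 libraries (TMM, filterByExpr, R 4.3.3), with Benjamini-Hochberg adjustment over 15284 genes and a threshold of 0.05. CPM are scaled by TMM. Log2 fold changes come from the fit, and folds from mean CPM. Symbols, exon lengths and GC content came from GENCODE 29 and a table of gene names by Ensembl identifier, and 97.3% of the tested genes had a length and GC content. Shares were tested by exact two-sided permutation. Alternatives were RLE and upper-quartile factors, other filters, DESeq2 1.42.0, a fit restricted to the compared groups, omission of each library in turn, the library letter as a block, and an offset from a spline (5 degrees of freedom) on GC content and length. Scripts were tested on simulated counts.

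Members and gene lists were chosen with earlier results of these data known. Full values are given for called members that changed by at least 1 on the log2 scale, and for the 3 members with the smallest p in each knockdown comparison. Of each other list, up to 4 called genes each way with the largest OIS change are named, and ID1 and ID3 beside ID2 and ID4. An item that this rule would name is not reported here. The shXPO7_5 of the labels was taken to be the shXPO7_X5 of the study.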

Additional observations from a re-analysis of the deposited data

How the results depend on the processing

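In OIS, 28 of the 31 members called kept their call in each of the 21 alternatives that tested them, and all 31 kept their sign. The alternatives called 29 to 37 members and 24.6% to 63.9% of all genes. Both the 37 and the 63.9% were reached with the offset for GC content and length. BMPR1B, LTBP1 and TGFB2 lost theirs in some. BMP6 and GDF5 were not tested under a minimum of 1 CPM in 6 libraries. Upper-quartile factors moved the median of all genes in OIS to -0.10 on the log2 scale, and 38.3% instead of 48.8% of the genes called were then higher, while the members stayed at 16 higher and 15 lower. The knockdown counts depended on the setting. With shXPO7_3 the offset for GC content and length called 5 members and 339 genes in place of 0 and 19, and 6 and 386 with the replicate block added. The 5 were TGFB1, TGFB2 and INHBA, which were higher, and LTBP1 and FSTL3, which were lower. The offset called each of these in the same direction with shXPO7_5, a comparison that shares the induced libraries. All genes called otherwise were 1 to 88, with 1 after leaving out any induced or shXPO7_3 library, while members called stayed at 0. With shXPO7_5 the members called were 1 with RLE factors, 4 without a filter, 1 with a minimum of 1 CPM, 4 with DESeq2, 3 with the replicate block, 10 with the offset and 14 with block and offset, and 0 to 12 on leaving out 1 library. Without shXPO7_5 A, 12 members and 3634 genes were called in place of 0 and 90, and without induced T or A or shXPO7_5 T only 2 genes. Between the shRNAs the offset called 1 member, ACVRL1, and 0.288% of all genes. With the block added it called 2, ACVRL1 and TGFBI, and 0.379% of all genes. Under the offset some changes with shXPO7_5 turned: INHBA to 0.25 with and without the block, FSTL3 to -0.19 in both, and with block and offset GREM1 to 0.25, LTBP3 to -0.18 and SMAD4 to 0.24. The letters T, A and B or C were not taken to pair the samples, since not every correlation of same-letter libraries was over 0.1. They ran from -0.23 to 0.59 with a median of 0.11, and 8 of 15 were over 0.1, beside a median of -0.08 and 14 of 39 for different letters. As a hint from the data, 6 of 11 libraries correlated best with one of their own letter. The replicate block called 34 members and 52.3% of all genes in OIS. ACVR2A (0.51), BMPR2 (0.47), SMAD5 (0.46) and SMURF2 (0.30) were gained and BMPR1B was lost. The block called 0 members with shXPO7_3, 3 with shXPO7_5 and 0 between the shRNAs. With the longest transcript as length, the OIS change in share was 2.77 percentage points for TGFB1 and -1.64 for TGFB3, and -0.143 for TGFB3 between the shRNAs. The cause of these shifts was not tested. Transcripts under 1 CPM rest on few counts, and 3 libraries a group allow no exact p under 0.1.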
